A study of Mus musculus with 10 samples.

Results

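Myostatin, the TGF-beta ligands and activin, 2 receptors of TGF-beta, a latency protein and 2 follistatin-type proteins were followed in the gastrocnemius, the large calf muscle, of mdx and normal mice. The 10 genes were Mstn, Inhba, Tgfb1, Tgfb2, Tgfb3, Tgfbr1, Tgfbr2, Ltbp1, Fst and Fstl1. A probe set, the group of probes that measures a transcript, was taken when the platform annotation named 1 gene and that gene was in this set. All 10 genes had a probe set and Tgfb3 had 2, which made 11 of the 12488 probe sets and 10 of the 8251 singly annotated genes on the array. The first group held 5 arrays from male mdx mice aged 16 weeks, and the second held 5 arrays from normal males of the same age, called control here. The mdx strain carries a mutation in Dmd, the gene of dystrophin, in every cell, and its muscle goes through rounds of fibre death and regeneration. The sources used here give neither the background strain of the groups nor whether each array came from its own animal, so the p-values measure a spread between arrays that may be in part technical.

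The TGF-beta superfamily consists of secreted dimers that bind paired serine-threonine kinase receptors on the cell surface and pass the signal to Smad transcription factors. Myostatin, made by muscle fibres, and activin, made from the chain that Inhba encodes, limit muscle growth through the activin type II receptors, and follistatin binds and blocks both. The TGF-beta ligands are secreted in a latent form that is tethered to the matrix through latent TGF-beta binding proteins, and once released they drive matrix production by fibroblasts.

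Mstn and Fstl1 were the members with a called difference between the groups, and the sequence before their transcription start is therefore shown. Both windows hold the 250 bases upstream of the start in the RefSeq promoter table of build GRCm38.p6, at chr1:53061390-53061639 on the plus strand for Mstn and at chr16:37776805-37777054 on the plus strand for Fstl1. Capitals mark CANNTG, the E-box letters that myogenic helix-loop-helix factors are known to bind.
Mstn: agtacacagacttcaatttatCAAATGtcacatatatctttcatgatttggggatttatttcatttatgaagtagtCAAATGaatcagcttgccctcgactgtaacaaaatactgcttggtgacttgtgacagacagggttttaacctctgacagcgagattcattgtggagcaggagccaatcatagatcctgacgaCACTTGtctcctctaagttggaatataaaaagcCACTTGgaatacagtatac
Fstl1: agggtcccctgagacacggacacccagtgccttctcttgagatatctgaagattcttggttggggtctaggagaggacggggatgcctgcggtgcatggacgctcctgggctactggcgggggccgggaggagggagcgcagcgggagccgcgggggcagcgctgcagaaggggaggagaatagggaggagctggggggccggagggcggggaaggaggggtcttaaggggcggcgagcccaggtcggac
The Mstn window held 4 E-boxes, which begin 229, 174, 52 and 19 bases before the start, and the Fstl1 window held 0. CANNTG reads the same on both strands and occurred in 66.2% of the 32851 windows of this length in the table. TATAAA, searched on both strands, occurred once in the Mstn window, 29 bases before the start, and 0 times in the Fstl1 window, against 12.4% of all windows. CAGAC, the letters of a Smad box, searched on both strands, occurred 2 times in the Mstn window and 0 times in the Fstl1 window, against 42.2% of all windows. No searched motif overlapped another in the Mstn window. GC content was 38.4% for Mstn and 68% for Fstl1, against a median of 52.4% over all windows. These letters describe the windows and say nothing of which factors were bound in these muscles.

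Across the whole array the groups were far apart. Of 7612 probe sets bright enough to test, 2520 (33.1%) were called by limma at an adjusted p below 0.05, 1191 (15.6%) higher and 1329 (17.5%) lower in mdx, and the groups did not overlap for 25.1%. Dmd, the gene mutated in the strain, had an intensity of 188 ± 33.7 in mdx and 797 ± 147 in control (SD, n = 5 each), a log2 change of -1.46 (limma adjusted p = 6.17e-06). The trimmed mean intensity was 801 on 9 arrays but 723 on mdx replicate 1, and mdx replicate 5 stood apart from the other mdx arrays on the second principal component. Without both of these arrays Mstn stood at -1.87 and Fstl1 at 1.52, both still called, and 1982 probe sets were called in all. Values below 0 made up 19.7% to 22.5% of each mdx array and 22.8% to 23.8% of each control array, without overlap. The part of this difference in the levels of dim members was not tested. The 3' to 5' ratio of the actin control probe sets, a measure of RNA quality, was 1.02 ± 0.0482 in mdx and 1.13 ± 0.0384 in control (exact permutation p = 0.0159, two-sided). The same ratio for Gapdh was 0.732 ± 0.0413 in mdx and 0.735 ± 0.0595 in control (exact permutation p = 0.921). The part of RNA quality in the results below was not tested.

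Of the 11 member probe sets, 5 were tested, and 2 of these were called, Mstn lower and Fstl1 higher in mdx. That share lay close to the 33.1% called over all tested probe sets, so the count by itself says little about the members. The other 3 tested probe sets, of Inhba, Tgfb3 and Fst, were not called. The remaining 6, of Tgfb1, Tgfb2, Tgfbr1, Tgfbr2, Ltbp1 and the dimmer one of Tgfb3, stayed below the noise level of 156.8 on all 10 arrays. The noise level is an SD derived from how far the negative intensities reach below 0. Each change is a difference of log2(intensity + 156.8), mdx over control, a scale that understates the change of dim genes, and SE stands for its standard error.

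**Figure D1:**
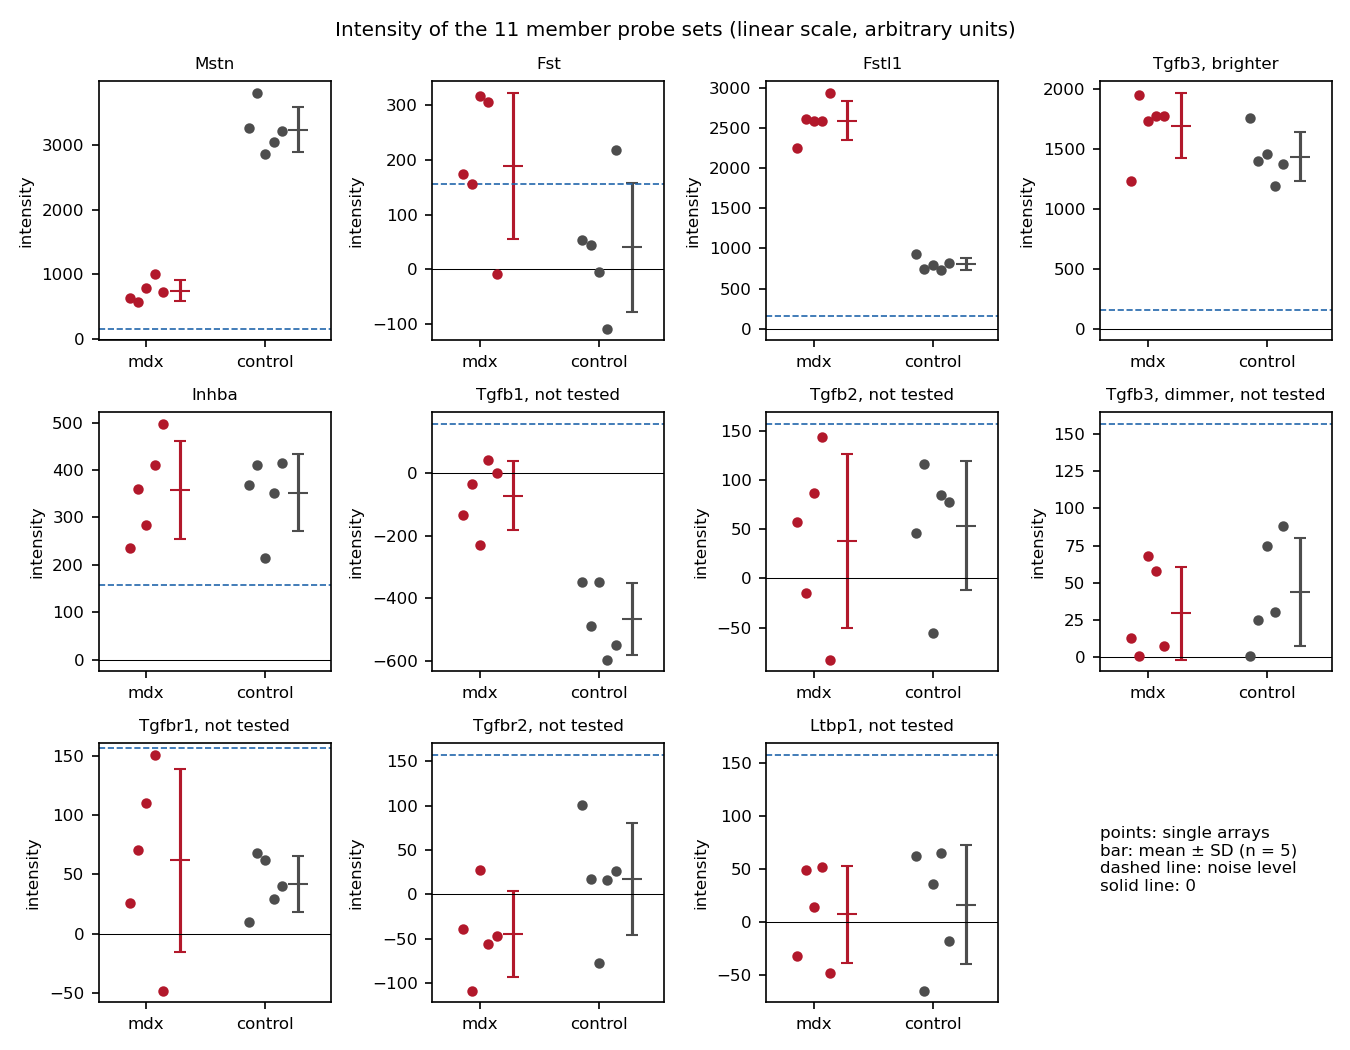
Intensity (linear scale, arbitrary units) of each member probe set on the 5 mdx and 5 control arrays, with the mean ± SD (n = 5). The groups are far apart for Mstn and Fstl1, while 6 probe sets lie below the dashed noise level on all arrays, among them Tgfb1, whose control values are all below 0.

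Among the 3 tested ligands, Mstn had the largest difference. Mstn, the muscle-made inhibitor of muscle growth, had intensities of 636, 573, 789, 999 and 723 on the mdx arrays, against 3273, 3807, 2869, 3051 and 3220 on the control arrays. The groups did not overlap, and the highest mdx array stood far below the lowest control array. The means were 744 ± 164 in mdx and 3244 ± 352 in control (SD, n = 5 each), a 4.36-fold ratio of control over mdx. On the log2 scale Mstn fell by 1.93 (SE 0.13, 95% interval -2.20 to -1.65, limma adjusted p = 3.13e-07). With each gene taken by its brightest probe set, Mstn was at place 9 of the 1059 genes called lower. This order follows the log2 scale used here, which understates the change of dim genes. The fall kept its call under all 22 alternatives tried, between -2.13 and -1.47.

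A list of genes of mature muscle fibres, chiefly fast ones, was lower on the same arrays, though by less than Mstn. Of 14 tested genes, 11 fell and 0 rose, against 18.4% of all tested genes called lower and 15.9% called higher, and their median change was -0.56, against -0.048 over all tested genes. The list's call depended on the scaling. After scaling to the hybridization controls 0 were lower, with a median of -0.049. After quantile normalization 3 were lower, with a median of -0.11. That method gives equal ranks equal values on every array, so it can hide a fall of the brightest probe sets. Tnnt3, at -0.53 as reported, stood at exactly 0 after it. The fast troponin Tnni2 fell by 0.69, the oxygen carrier Mb by 0.61 and the fast myosin heavy chain Myh1 by 0.42, although Myh1 stood at 0.066 after quantile normalization and at 0.090 after scaling to the hybridization controls. Their summed intensity ranged from 247412 to 383460 in mdx and from 317354 to 545830 in control. None of the 14 was below the noise level on any array. The list holds no slow-fibre myosin. The slow light chains Myl3 and Myl2, named after their values were seen, stood at -1.89 and -1.71. They were picked below as genes with levels most like those of Mstn, so a change of like size follows from that choice. Slow-fibre genes as a set were not tested. In whole muscle, fewer cells of a type and less RNA per cell cannot be told apart.

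Within each array, the log2 level of Mstn minus the mean of these fibre genes was -4.62, -4.58, -4.51, -3.85 and -4.88 in mdx, against -3.04, -3.12, -3.63, -3.24 and -2.67 in control. The groups did not overlap on this measure either. Mstn thus fell by 1.35 more than the mean of this list (exact permutation p = 0.00794, two-sided, the smallest that 5 arrays against 5 can give). The difference was -1.75 after quantile normalization, which can hide a fall of the bright fibre genes. It was -1.40 after scaling to the hybridization controls, where the mean change of the fibre genes was -0.069 and 0 of them were called. The fibre genes are far brighter than Mstn, with control means from 15749 (Mylpf) to 56226 (Tnnt3), against 3244 for Mstn. Whether such bright probe sets understate a change was not tested.

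**Figure D2:**
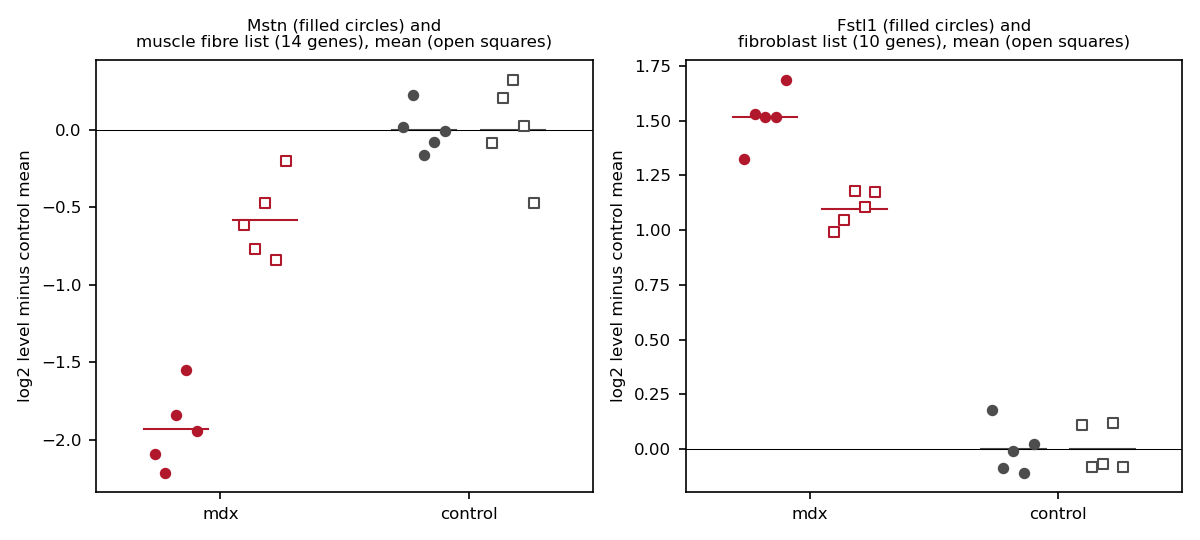
Log2 level on each array minus the control mean, for Mstn beside the mean of 14 muscle fibre genes and for Fstl1 beside the mean of 10 fibroblast genes, with a line at each group mean. On the mdx arrays the Mstn points lie below the fibre genes (mean changes -1.93 and -0.58), and the Fstl1 points lie above the fibroblast genes (mean changes 1.51 and 1.10).

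Most tested genes of regenerating or immature fibres were higher on the same arrays. Of 11 tested genes of a list that also holds satellite cell markers, 7 rose and 0 fell, with a median change of 0.94 and a summed intensity of 44737 to 56114 in mdx, against 17510 to 24408 in control. Myl4, an embryonic myosin light chain, rose by 3.75, Chrna1, a subunit of the muscle acetylcholine receptor, by 2.80, and Myh3, the embryonic myosin heavy chain, by 2.65. Myh8, a further myosin heavy chain of the list, was not called, at -0.078, and its other probe set stood at -0.24 without a call. The satellite cell markers Cdh15, Myf5 and Ncam1 were not called, at 0.42, 0.47 and 0.27, and Myf5 stayed under the noise level in control (5 of 5 arrays). The part of regenerating fibres in the Mstn result was not tested.

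Inhba, which encodes the chain of activin A, had intensities of 235, 360, 283, 411 and 496 in mdx, against 367, 411, 215, 352 and 415 in control. The groups overlapped over nearly their whole range, and no array was below the noise level. The means were 357 ± 103 in mdx and 352 ± 81.5 in control (SD, n = 5 each), and the log2 change was 0.0072 with an SE of 0.17 (limma adjusted p = 0.981). The 95% interval, from -0.37 to 0.39, leaves room for a moderate change in either direction. Mstn fell by 1.94 more than Inhba on the same arrays (exact permutation p = 0.00794, adjusted p = 0.0119 over the 3 pairs of members compared, of which the other two involve the dim Fst).

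Tgfb3, a TGF-beta ligand with roles in wound repair and development, was the only one of the 3 TGF-beta ligands with a signal above the noise. Its brighter probe set had intensities of 1230, 1947, 1731, 1773 and 1773 in mdx, against 1755, 1396, 1456, 1188 and 1375 in control. Apart from mdx replicate 1, the mdx arrays lay close together. All mdx arrays but replicates 1 and 3 were above every control array. The means were 1691 ± 271 in mdx and 1434 ± 205 in control (SD, n = 5 each). The log2 change of 0.21 (SE 0.13, 95% interval -0.065 to 0.49, limma adjusted p = 0.229) did not pass the test. It passed without mdx replicate 1, the array with the low trimmed mean, at 0.31 (limma adjusted p = 0.0440), and after scaling to the hybridization controls, at 0.68 (adjusted p = 0.00397), a scaling under which the median of all tested probe sets is 0.35. The dimmer Tgfb3 probe set lay between 0.513 and 67.9 in mdx and between 0.185 and 88.3 in control, under the noise level throughout, so the probe sets cannot be set against each other.

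Tgfb1, the ligand best known from fibrotic muscle, gave no measurable level in either group. Its probe set read -133, -33.2, -230, 41.1 and 0.398 in mdx, against -347, -488, -348, -596 and -548 in control. The groups did not overlap, yet all 5 control values and 3 of 5 mdx values were below 0, and none of the 10 reached the noise level, so the gap between the groups cannot be read as a difference in transcript level. Tgfb2 lay between -82.6 and 143 in mdx and between -55.7 and 116 in control. A difference in either transcript was not detectable with these probe sets.

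The receptors and the latency protein were in the same position. Tgfbr1, the type I receptor kinase, lay between -48.2 and 151 in mdx and between 9.79 and 67.9 in control. Tgfbr2, the type II receptor that binds the ligand first, lay between -108 and 27.7 in mdx and between -76.6 and 101 in control. Ltbp1, which tethers latent TGF-beta to the matrix, lay between -47.8 and 52.1 in mdx and between -64.8 and 65 in control. The groups overlapped for each of the 3 genes, and none of their values reached the noise level. With no filter on dim probe sets, 0 of the 6 dim member probe sets were called. Their log2 changes lay between -0.20 and 0.17, with limma adjusted p between 0.348 and 0.939. Values below 0 were raised to 0, and the noise level added to each exceeds them all. Small changes were thus fixed by the scale, and this fit cannot show that these transcripts did not change.

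Of the follistatin-type proteins, Fstl1 had a clear difference. Fstl1, a secreted glycoprotein of the follistatin family made mainly by mesenchymal cells, had intensities of 2247, 2620, 2586, 2589 and 2935 in mdx, against 931, 748, 797, 734 and 819 in control. The groups did not overlap, and the arrays of each group lay close together. The means were 2596 ± 244 in mdx and 806 ± 78.1 in control (SD, n = 5 each), a 3.22-fold ratio of mdx over control. On the log2 scale Fstl1 rose by 1.51 (SE 0.093, 95% interval 1.31 to 1.72, limma adjusted p = 1.86e-07). It was at place 159 of the 918 genes called higher, with 17.2% of them changed further. The limit given for the place of Mstn applies here too. The call held under all 22 alternatives, between 1.17 and 1.97.

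Fibroblast markers moved with Fstl1. Of 10 tested, 7 rose and 1 fell, Pdgfra at -0.36, a call kept in 2 of the 10 fits with 1 array left out, with a median change of 1.15 and a summed intensity of 28737 to 32224 in mdx, against 9560 to 11626 in control, and with none below the noise level. Col5a2 and Col6a3, which encode collagen chains, had changes of 2.24 and 2.02, and Lum, a collagen-binding proteoglycan, one of 1.75. The log2 level of Fstl1 minus the mean of these markers was 0.28, 0.44, 0.29, 0.36 and 0.46 in mdx, against 0.023, -0.054, 0.010, -0.27 and 0.054 in control, with no overlap. Fstl1 rose by 0.42 more than the mean of the list (exact permutation p = 0.00794, two-sided, again the smallest possible). The list was not uniform, since Col5a2, Col6a3, Lum and Thy1 (1.53) changed by more than Fstl1, while Pdgfrb (0.076) and Fbln1 (0.42) were not called. The part of fibroblasts in the Fstl1 result was not tested.

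Macrophage markers differed by more. Of 11 tested, 10 rose and 0 fell, with a median of 2.66 and a summed intensity of 55461 to 74610 in mdx, against 4651 to 8428 in control. Among them Ctss, a lysosomal protease, rose by 3.92, Tyrobp, a myeloid signalling adaptor, by 3.79 and Lyz2, a lysozyme with a near-identical paralog that may share its probes, by 3.58. Adgre1, the gene of the F4/80 antigen, stayed under the noise level in control (5 of 5 arrays). The part of macrophages in the levels of Fstl1 and of the other members was not tested.

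Fst, follistatin itself, was near the noise level. Its probe set read 175, 157, 318, 306 and -9.01 in mdx, against 54.1, 44.3, -5.48, -108 and 218 in control. In mdx 1 array was below the noise level, and in control 4 were, so that the groups overlapped through mdx replicate 5 and control replicate 5. Fst passed the filter with 5 of 10 arrays above 134.3, the fewest that the filter accepts. These were mdx replicates 1 to 4 and control replicate 5, so it passed mainly through the group where it is higher. The log2 change of 0.64 (SE 0.33, 95% interval -0.068 to 1.35, limma adjusted p = 0.158) did not pass the test. Without mdx replicate 5 it was 0.90 (limma adjusted p = 0.0251). On all arrays it was 1.21 with 0.25 times the noise level as pseudocount and 0.24 with 4 times. These fits rest on control values mostly below the noise level, so none is read as showing a change or its absence.

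Differences of Mstn or Fstl1 from Fst on the same arrays are given without a test, because Fst was below the noise level on 4 of 5 control arrays and below 0 on mdx replicate 5 and control replicates 3 and 4, where its log2 level is fixed by the pseudocount. Mstn minus Fst differed by -2.57 between the groups, of which the fall of Mstn alone was -1.93. Fstl1 minus Fst differed by 0.87, and by 0.43 with 0.25 times the noise level as pseudocount. The size of either difference is therefore not settled by these arrays.

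**Figure D3:**
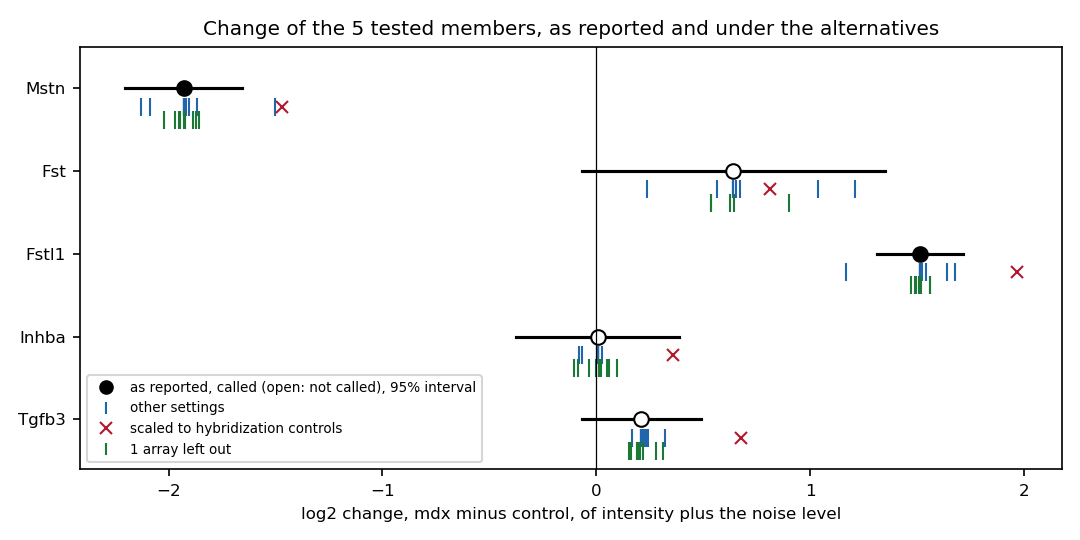
Log2 change, mdx minus control, of the 5 tested members as reported with its 95% interval (filled where called), under the alternative settings and with 1 array left out (ticks), and after scaling to the hybridization controls (crosses). Mstn stays between -2.13 and -1.47 and Fstl1 between 1.17 and 1.97, whereas Inhba crosses 0 and Fst spreads from 0.24 to 1.21.

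In the rest of the superfamily and its pathway, 88 further genes of 6 lists were on the array and 63 were tested, of which 18 rose, 4 fell and 41 were not called. The 34.9% called lay near the 34.3% of all tested genes. After scaling to the hybridization controls, where the median of all tested probe sets was 0.35, the medians of the other ligands, the receptors and the Smads given below turned positive, at 0.28, 0.24 and 0.33. Of 11 other ligands, 0 rose and 1 fell, with a median of -0.083 that turned to 0.0098 without mdx replicate 5 and to 0.16 without mdx replicates 1 and 5. This was Bmp4, a bone morphogenetic protein, at 1432 ± 401 in mdx and 2310 ± 359 in control (SD, n = 5 each), a log2 change of -0.65, although its other probe set stood at -0.14 without a call and the call was lost after scaling to the hybridization controls, at -0.18. Gdf11, the closest relative of Mstn, was on the array but too dim to test.

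Of 7 other receptors and co-receptors, 0 rose and 1 fell, with a median of -0.036. That median was close to 0 and not stable, since it turned to 0.0086, 0.052 and 0.015 without control replicate 2, control replicate 3 or mdx replicate 5, and stood at -0.19 and -0.17 without control replicate 4 or 5. Acvrl1, a type I receptor of endothelial cells, had 2235 ± 234 in mdx and 4402 ± 434 in control (SD, n = 5 each), a log2 change of -0.93 (limma adjusted p = 1.31e-05), but its 2 dimmer probe sets stood at 0.30 and 0.17 without a call. The activin type II receptors through which myostatin acts, Acvr2a and Acvr2b, were not called, at -0.00087 and -0.22 (limma adjusted p = 0.997 and 0.571). Of 8 endothelial markers on the same arrays, 0 rose and 2 fell, Flt1 at -0.74 and Vwf at -0.75. Over all tested genes 18.4% were called lower, so the count by itself says little about these markers. Their median was -0.25 and their summed intensity 4979 to 6290 in mdx, against 6793 to 8155 in control. After scaling to the hybridization controls 1 of the 8 rose and 0 fell, with a median of 0.18, and Flt1 and Vwf were not called, at -0.30 and -0.39. Their part in the Acvrl1 result was not tested. Cdh5, the cadherin of endothelial junctions, was not called, at -0.39. Neither were Tie1 (-0.27), Emcn (-0.22), Tek (-0.057), Pecam1 (0.084) and Kdr (0.17), and the dimmer probe sets of Tie1 and Emcn stood at 0.38 and 0.19 without a call.

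Of 11 genes that store, process or release the ligands, 2 rose and 1 fell, with a median of 0.14. After scaling to the hybridization controls 6 of 12 tested rose and 0 fell, with a median of 0.62, and without control replicate 1 the median was 0.26. Mmp14, a membrane-bound metalloproteinase that can release TGF-beta, had 1935 ± 349 in mdx and 988 ± 127 in control, a log2 change of 0.86. Bmp1, a protease that cleaves procollagens and the myostatin propeptide, had 1074 ± 130 in mdx and 582 ± 230 in control, a log2 change of 0.79, with a second probe set called at 0.72. Plau, the urokinase-type plasminogen activator, fell by 0.52, a call kept in 4 of the 10 fits with 1 array left out and lost without mdx replicate 1, 4 or 5 or control replicate 2, 3 or 5 (-0.51 to -0.43), and also after scaling to the hybridization controls, at -0.16. The relatives of Ltbp1 that were tested, Ltbp2, Ltbp3 and Ltbp4, were not called, at 0.55, -0.027 and 0.14.

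Of 5 other antagonists, 2 rose and 1 fell, with a median of -0.27 that was -0.15 without control replicate 1 and turned to 0.14 after quantile normalization and to 0.21 after scaling to the hybridization controls. Bgn, the proteoglycan biglycan, which binds TGF-beta, had 9387 ± 1923 in mdx and 2513 ± 345 in control (SD, n = 5 each), a log2 change of 1.82 (limma adjusted p = 1.38e-06), while its dimmer probe set stood at 0.27 without a call. Twsg1, a modulator of bone morphogenetic proteins, rose by 0.79. Decorin, Dcn, which binds TGF-beta and myostatin, had 24461 ± 3229 in mdx and 31123 ± 4060 in control, a log2 change of -0.35. The Dcn call rested on the setting, with 0.14 after quantile normalization, 0.17 after scaling to the hybridization controls, and 5 of the 10 fits with 1 array left out still below the threshold. It was lost without mdx replicate 1, 2 or 4 or control replicate 2 or 3 (-0.32 to -0.29). Dcn is about as bright as the fibre genes, so the limit of quantile normalization given for them applies here too.

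Of 10 Smads and regulators, 2 rose and 0 fell, with a median of -0.023, between -0.079 and 0.025 with 1 array left out. Tgif1, a repressor of Smad-driven transcription, had 556 ± 41.4 in mdx and 282 ± 62 in control, a log2 change of 0.71. Smad1, which relays bone morphogenetic protein signals, had 1279 ± 137 in mdx and 863 ± 69.6 in control, a log2 change of 0.49, with its other probe set called at 0.59. Smad2, which relays TGF-beta, activin and myostatin signals, was not called, at 0.28, nor was the inhibitory Smad7, at -0.032.

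The list of genes known to respond to TGF-beta or bone morphogenetic proteins in other settings had the median furthest from 0 among the 6 pathway lists, though the macrophage list stood further, at 2.66. Of 19 tested, 12 rose and 0 fell, against 15.9% of all tested genes called higher, with a median of 1.29. Id2, an inhibitor of helix-loop-helix factors, had 1392 ± 201 in mdx and 212 ± 36 in control (SD, n = 5 each), a log2 change of 2.07. Col3a1, a fibrillar collagen chain, rose by 2.34, Fn1, fibronectin, by 1.79 and Col1a1 by 1.47, although the dimmer Col1a1 probe set stood at 0.39 without a call. Several of these genes are matrix genes of fibroblasts, whose markers rose on the same arrays as given above. Ccn2, a classical TGF-beta target, was not called, at 0.052, and neither were Id1 and Id3, at 0.21 and 0.15.

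**Figure D4:**
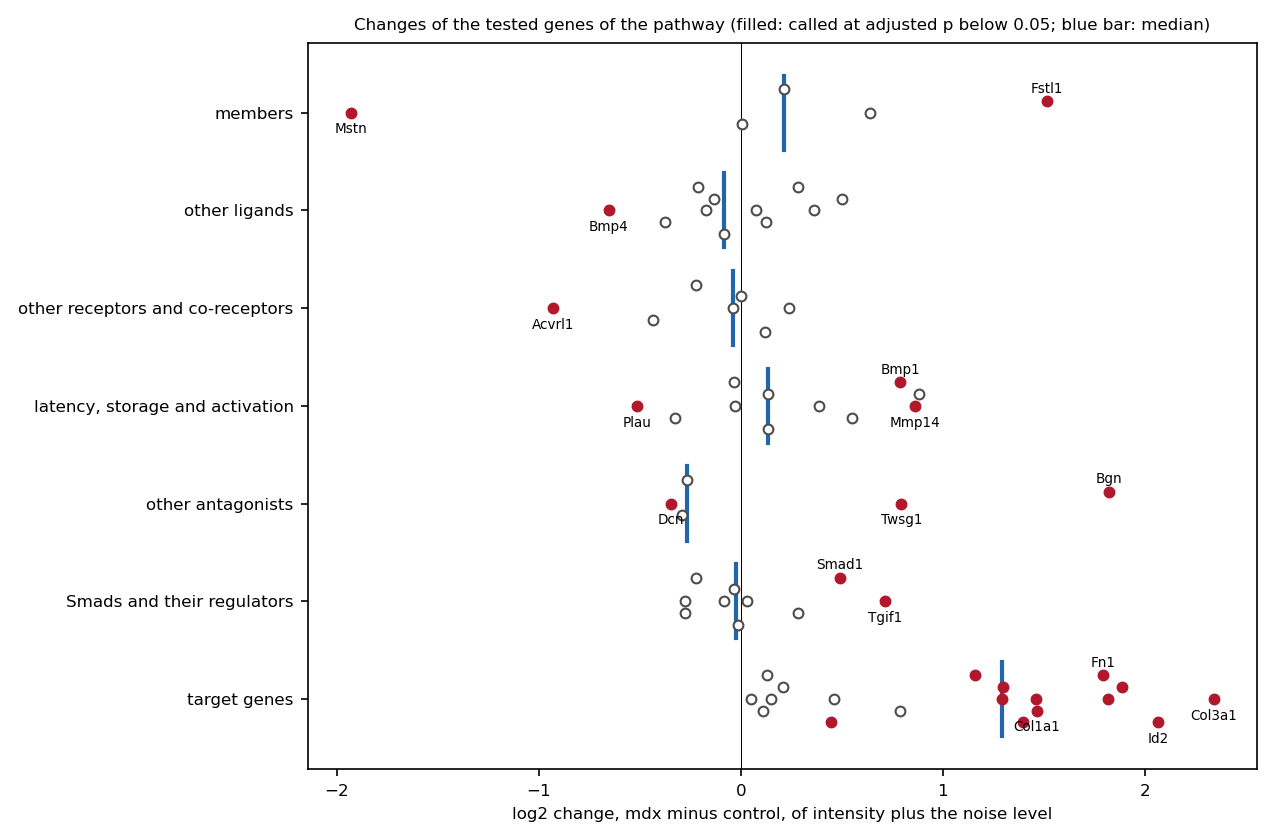
Log2 change, mdx minus control, of each tested gene of the members and the 6 pathway lists, by its brightest probe set, with filled points for called genes and a blue bar at each median. The medians lie between -0.27 and 0.21 except for the target genes at 1.29, and Mstn stands lowest of all genes shown.

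The genes most like Mstn over the 10 arrays, by the smallest root mean square difference of centred log2 levels, were Myl3 (0.122), Hk2 (0.204), Myl2 (0.218), Fdft1 (0.277) and Lgalsl (0.282). Myl3, a slow myosin light chain, had 3974 ± 580 in mdx and 15032 ± 906 in control, a log2 change of -1.89. Hk2, the hexokinase of muscle, had 2258 ± 254 in mdx and 7951 ± 1080 in control. The genes most like Fstl1 by the same measure were Mup3 (0.0874), Tmem176b (0.0970), S100a10 (0.111), Eef1a1 (0.116) and Tuba1c (0.121). S100a10, an annexin-binding protein, had 5950 ± 554 in mdx and 1988 ± 146 in control. Mup3 and Tuba1c belong to families of near-identical genes, and the mean of Mup3 in control was below 0. The measure follows the difference between the groups above all, so it finds genes with a change of like size and says nothing of shared function or control.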

How the data were processed

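The authors deposited 1 linear intensity per probe set and array. Some values lie below 0. The software, and how background and scaling were handled, is not given in the sources used here. Controls (66 probe sets) were left out. Of the others, 10833 named 1 gene, 396 several and 1193 none. The platform's gene annotation was checked by gene number against the mouse RefSeq table of assembly GRCm38.p6, which changed 0 symbols. After values under 0 were raised to 0, levels were expressed as log2(intensity + 156.8). The noise level of 156.8 is the median size of the 27483 values below 0, rescaled to an SD. Probe sets above 134.3, the 40th percentile, on at least 5 of the 10 arrays were tested (7612, for 5767 genes).

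The test of mdx against control was limma's moderated test (version 3.58.1, R 4.3.3) with a mean-variance trend. P-values are two-sided, adjusted by Benjamini-Hochberg over the 7612 probe sets, and called below 0.05. A gene with several probe sets is represented by the brightest. Differences within arrays were tested by exact permutation. Tgfb1 could not be set against macrophage genes, nor Tgfb1, Tgfb2, Tgfb3, Tgfbr1 and Tgfbr2 against each other, nor the Tgfb3 probe sets, because a probe set in each was too dim. Pairs with Fst, floored on 3 arrays, are given without a test. The named genes were all members, up to 4 called genes in each direction with the smallest p per pathway list, up to 3 genes per cell type list, and the 5 genes most like each called member with a change of at least 1. Genes named in the text as not called were chosen for their place in the pathway after their values were seen. The members and lists were chosen with earlier results of these data known. The calculations were tested on simulated data. The number of arrays limits the precision.

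Alternatives were other scalings, pseudocounts, filters, a replicate block, array weights and leaving out arrays.

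Among the other cell type lists, the 4 tested lymphocyte markers gave 0 calls higher and 1 lower, the 4 of smooth muscle or pericytes 1 higher and 1 lower, and the 3 of adipocytes 1 higher and 0 lower.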

Additional observations from a re-analysis of the deposited data

Results flagged for a closer look

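Of 14 groups of 5 arrays examined, 2 held an array apart from the other 4, by a gap larger than Dixon's 95% critical value of 0.71 for 5 values. Chance flags about 1 in 20 such groups. For Tgfb3, mdx replicate 1 had a log2 level of 10.44, below the 10.88 to 11.04 of the other mdx arrays, a gap of 0.740 of the group's range. The same array had the low trimmed mean of 723, and with equal trimmed means the change of Tgfb3 was 0.24 (limma adjusted p = 0.13). For Inhba, control replicate 3 had a log2 level of 8.54, below the 8.99 to 9.16 of the other control arrays, a gap of 0.727 of the range. Without it the change of Inhba was -0.10 (limma adjusted p = 0.683).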

How the results depend on the processing

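Under the alternatives, Mstn and Fstl1 kept their direction and their call in all 22 settings, with limma adjusted p up to 5.32e-05 and 4.59e-05. Between 1982 and 3285 probe sets were called over all settings (2174 to 2423 with 1 array left out), 2 or 3 of the member probe sets and 20 to 32 of the pathway genes (20 to 25 with 1 array left out). Scaling to the hybridization controls put the median of all probe sets at 0.35, against -0.046 as reported, and the share of calls that were higher in mdx at 93.7%, against 47.3% as reported, so that levels here are relative to the other genes of an array. The change of Inhba, never called, turned to -0.083 with quantile normalization, -0.065 with array weights, and -0.00053, -0.035, -0.085 and -0.10 without mdx replicate 2, 4 or 5 or control replicate 3, with a range of -0.10 to 0.099 when 1 array was left out. Fst fell below the filter in 7 settings and gave no value there. Same-numbered arrays did not deviate together, with correlations of their deviations between -0.13 and 0.052 over the 5 numbers. So few pairs cannot exclude a link between arrays of the same number. With the replicate block as a permutation within same-numbered pairs, the smallest possible p is 0.0625, so Mstn against the fibre genes (-1.35) and Fstl1 against the fibroblast genes (0.42) both stood at 0.0625, and 0 of the 3 member pairs passed, 2 of which involve the dim Fst and are not read as tests. In limma the replicate block called 2212 probe sets and changed no call of a member. Without mdx replicates 1 and 5, an alternative added after the data were seen, 2 members were called and the difference of Mstn from the fibre genes was -1.18. With 1 array left out it ranged from -1.51 to -1.23, that of Fstl1 from the fibroblast genes from 0.36 to 0.44, and that of Mstn from Inhba from -2.01 to -1.84.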
